A study of Mus musculus with 38 samples.

Results

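A group of 67 genes in mouse embryonic stem cells had less RNA after 6 h of BRM014 and were back near the vehicle level after 24 h, while the drug was still present. BRM014 blocks BRG1 and BRM, the ATPases that drive the SWI/SNF chromatin remodellers. The genes were chosen on normalised read counts (CPM, a gene's count scaled by its library's total count) in the first of the study's 2 experimental batches, as means of 2 libraries a group. A member had at least 2 CPM with DMSO (the solvent, or vehicle) at both 1 h and 24 h. Its mean after 6 h of BRM014 was at most 0.6 of each of those vehicle means, and its mean after 24 h of BRM014 was between 0.85 and 1.5 of DMSO 24 h. Of 55385 genes listed, 9305 had the vehicle level, 670 of those (7.2%) met the 6 h limit, and 67 of the 670 (10.0%) also met the 24 h range. A further 462 were still at 0.6 or lower at 24 h, 132 lay between 0.6 and 0.85, and 9 were above 1.5.

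The cells were lines of 129S6/SvEvTac background kept on gelatin with serum and leukemia inhibitory factor (LIF). In the second batch, cells labelled Snf2hko, Ino80ko and wild type each received 10 uM BRM014 or DMSO for 24 h. Ino80 is the ATPase of the INO80 remodeller, and Snf2h (Smarca5) is an ATPase of ISWI remodellers. The labels do not say how many clones each line stands for. In the first batch, wild-type cells had a BRM014 time course at the same dose (30 min, then 1 h, 3 h, 6 h and 24 h), an inactive analog of it at 10 uM for 1 h or 24 h, or DMSO for 1 h or 24 h. Others had 1 h of BRM014 followed by a washout of 30 min or 1 h, or 24 h of BRM014 followed by a washout of 6 h or 24 h; the labels give no dose for these. Every group had 2 libraries within a batch. No vehicle was taken at 3 h or 6 h, the knockout lines have no 6 h library, and there was no washed vehicle.

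SWI/SNF complexes use ATP to move or evict nucleosomes at enhancers and promoters, which keeps the DNA there open to transcription factors. Remodellers of the ISWI and INO80 families space and edit nucleosomes with other ATPases and act on the same genome. The members serve many roles in a cell. Several take up amino acids or belong to the response to their shortage (Slc7a1, Slc7a3, Slc7a7, Trib3, Gpt2, Stc2), some act in the sensing of viral RNA and the interferon response (Ddx58, Helz2) or in the endoplasmic reticulum (Tor3a, Xbp1, Gpx7), and others are transcription factors (Grhl2, Zfp423, Etv1, Jdp2).

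Libraries held 19349695 to 23053021 counts in the first batch and 21948010 to 44453556 counts in the second, and the lowest count of a member in any library was 4. All 10 stem cell markers checked were expressed, with a summed level of 5250 to 7600 CPM over the 38 libraries. The 7 endoderm markers, 4 of them at 1 CPM or more on average and Pdgfra at 0, summed to 115 to 240 CPM in the first batch and to 34.6 to 724 CPM in the second, and their part in the differences between lines was not tested. The other 5 marker sets (trophoblast, mesoderm, neural, fibroblast and endothelium) summed to at most 148 CPM. In these sets Gata3, Sox1, Tubb3, Col1a2, Col3a1 and Emcn were at 0 in all libraries. Ino80 had 119 to 133 CPM in Ino80ko libraries, 118 to 134 CPM in Snf2hko libraries and 153 to 173 CPM in wild type of the second batch, so its transcript does not check the Ino80ko label. Smarca5 is listed at 0 in all 38 libraries, as is Smarca4, so the Snf2hko label could not be checked either. Both are at 0 in wild type too, so a gene at 0 throughout may not have been counted. The markers at 0 therefore do not show that a cell type is absent. The replicates are called biological, but which cultures they come from is not given, so p-values measure only how far these samples spread, which may be technical.

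The members were spread over 18 chromosomes, and 64 of 67 were protein coding. Their median vehicle level was 9.26 CPM, against 41.1 CPM over the 9305 genes with the vehicle level. Promoter sequences from RefSeq (GRCm38.p6) were at hand for 45 of the 67 members and for 9020 of the 12517 genes tested in the first batch. In the 250 bases before the start, the letters TATAAA on either strand were found in 7 of 45 members (15.6%), against 6.7% of the genes tested. The letters GGAATG, bound by TEAD factors, were found in 9 of 45 (20%) against 10.8%, and TGANTCA, bound by AP-1, in 5 of 45 (11.1%) against 4.3%. The letters CCAAT, bound by NFY, were found in 9 of 45 (20%) against 37.3%. Some of these letters went the same way in other genes that dipped at 6 h. Promoters were at hand for 88 of the 132 genes partly recovered at 24 h. They held TATAAA in 12.5%, GGAATG in 7.95%, TGANTCA in 2.27% and CCAAT in 30.7%. For the 462 genes still low at 24 h there were 333 promoters, with shares of 6.31%, 12.9%, 7.51% and 28.5%. These motifs were picked from 21 searched after their shares were seen, and no test was run on them. A match says that the letters are there, not that a factor binds.

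Promoters of 4 members are shown, to set the sequences of genes with unlike washout courses side by side, each as the 250 bases before the annotated start, read on the minus strand of GRCm38.p6. Capitals mark TATAAA in Ddx58 (chr4:40239826-40240075), where it begins 153 bases before the start, and in Trib3 (chr2:152344061-152344310), where it begins 166 bases before it. In Slc7a7 (chr14:54417703-54417952) they mark TGATGCAA, the reverse complement of TTGCATCA, which is the core of the site shared by C/EBP and ATF factors (1 of 45 members and 0.499% of the genes tested). In Stc2 (chr11:31370062-31370311) they mark ATTGG, the reverse complement of CCAAT.
Ddx58: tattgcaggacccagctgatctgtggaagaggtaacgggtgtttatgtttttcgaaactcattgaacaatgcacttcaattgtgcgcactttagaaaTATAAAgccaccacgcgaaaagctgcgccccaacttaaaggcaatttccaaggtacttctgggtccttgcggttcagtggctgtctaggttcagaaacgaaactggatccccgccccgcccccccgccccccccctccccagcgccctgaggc
Trib3: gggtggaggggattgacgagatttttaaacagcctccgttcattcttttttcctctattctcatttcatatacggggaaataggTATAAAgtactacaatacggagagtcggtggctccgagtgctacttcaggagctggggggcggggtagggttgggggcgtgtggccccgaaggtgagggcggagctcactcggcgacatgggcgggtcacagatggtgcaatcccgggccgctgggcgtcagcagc
Slc7a7: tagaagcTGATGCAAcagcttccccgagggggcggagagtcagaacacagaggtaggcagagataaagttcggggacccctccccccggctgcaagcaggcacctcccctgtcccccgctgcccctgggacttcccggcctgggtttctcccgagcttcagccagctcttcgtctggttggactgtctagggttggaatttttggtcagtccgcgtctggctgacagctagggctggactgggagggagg
Stc2: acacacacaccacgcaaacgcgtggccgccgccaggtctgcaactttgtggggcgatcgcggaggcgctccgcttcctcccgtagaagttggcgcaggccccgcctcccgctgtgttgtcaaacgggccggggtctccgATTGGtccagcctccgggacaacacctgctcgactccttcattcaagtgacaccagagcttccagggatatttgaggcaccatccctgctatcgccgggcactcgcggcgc

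Values at 6 h and 24 h of BRM014 in the first batch chose the members, so they are given here without a test. In RNA from whole cultures, fewer cells that express a gene and less of its RNA per cell cannot be told apart. The ratio of BRM014 6 h to the lower vehicle mean ran from 0.284 to 0.597 over the 67 members (median 0.526). The 3 members nearest the limit were Rbm20 at 0.597, Grhl2 at 0.596 and Mical1 at 0.594, and the 3 genes just beyond it were ENSMUSG00000084350 at 0.6002, Adgrb2 at 0.603 and Zfp991 at 0.605. The ratio of BRM014 24 h to DMSO 24 h had a median of 1.02 over the members. Chosen from replicate 2 alone or from replicate 1 alone, the rule gave 70 genes each time, with 43 and 39 of the 67 members among them.

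Ddx58, which encodes the viral RNA sensor RIG-I, had the lowest 6 h ratio. It had 12.5 and 11.5 CPM after 6 h of BRM014 and 45.4 and 42.4 CPM after 24 h, against 50.7 and 53.1 CPM with DMSO 1 h and 38.9 and 45.6 CPM with DMSO 24 h. The 6 h libraries lay below every other library of the batch, and the 24 h libraries lay within the range of DMSO 24 h. Tor3a, a torsin ATPase of the endoplasmic reticulum, had 21.2 and 18.2 CPM after 6 h and 58.7 and 60.4 CPM after 24 h, against 69.8 and 69.2 CPM with DMSO 1 h and 56.7 and 56.9 CPM with DMSO 24 h. Icam1, an adhesion molecule of the cell surface, had 81.7 and 85 CPM after 6 h and 179 and 177 CPM after 24 h, against 173 and 172 CPM with DMSO 1 h and 204 and 192 CPM with DMSO 24 h. For all 3 genes the 6 h libraries were far below both vehicles.

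The amino acid transporters among the members had the same course, which the choice required of every member. Slc7a7, the light chain of an exchanger of cationic and neutral amino acids, had 95.8 and 102 CPM after 6 h and 238 and 249.3 CPM after 24 h, against 299 and 304 CPM with DMSO 1 h and 226 and 253 CPM with DMSO 24 h. Slc7a3, a cationic amino acid transporter, had 78.1 and 84.1 CPM after 6 h and 244 and 240.4 CPM after 24 h, against 166 and 175 CPM with DMSO 1 h and 254 and 255 CPM with DMSO 24 h. Its vehicle level was itself higher at 24 h than at 1 h, so its 6 h ratio was 0.477 to DMSO 1 h and 0.318 to DMSO 24 h. Slc7a1, a widely expressed transporter of the same class, had 85.7 and 87.7 CPM after 6 h and 293 and 345 CPM after 24 h, against 183 and 184 CPM with DMSO 1 h and 207 and 290 CPM with DMSO 24 h. The DMSO 24 h libraries of Slc7a1 lie far apart.

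Trib3, a pseudokinase switched on by the transcription factor ATF4 when amino acids run short, had 25.4 and 28.5 CPM after 6 h and 89.4 and 90.3 CPM after 24 h, against 60.2 and 64.5 CPM with DMSO 1 h and 70.0 and 65.5 CPM with DMSO 24 h. Stc2, a secreted glycoprotein also induced by this stress response, had 5.61 and 6.75 CPM after 6 h and 22.1 and 21.7 CPM after 24 h, against 14.0 and 17.2 CPM with DMSO 1 h and 22.6 CPM in both DMSO 24 h libraries. Jdp2, a repressor of the AP-1 family, had 1.38 and 1.62 CPM after 6 h and 5.95 and 6.46 CPM after 24 h, against 4.52 and 5.48 CPM with DMSO 1 h and 7.38 and 6.62 CPM with DMSO 24 h. In each of the 3 the 6 h libraries were the lowest among the BRM014 and vehicle libraries except in Trib3, where the 3 h libraries (25.7 and 24.7 CPM) were as low.

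**Figure D1:**
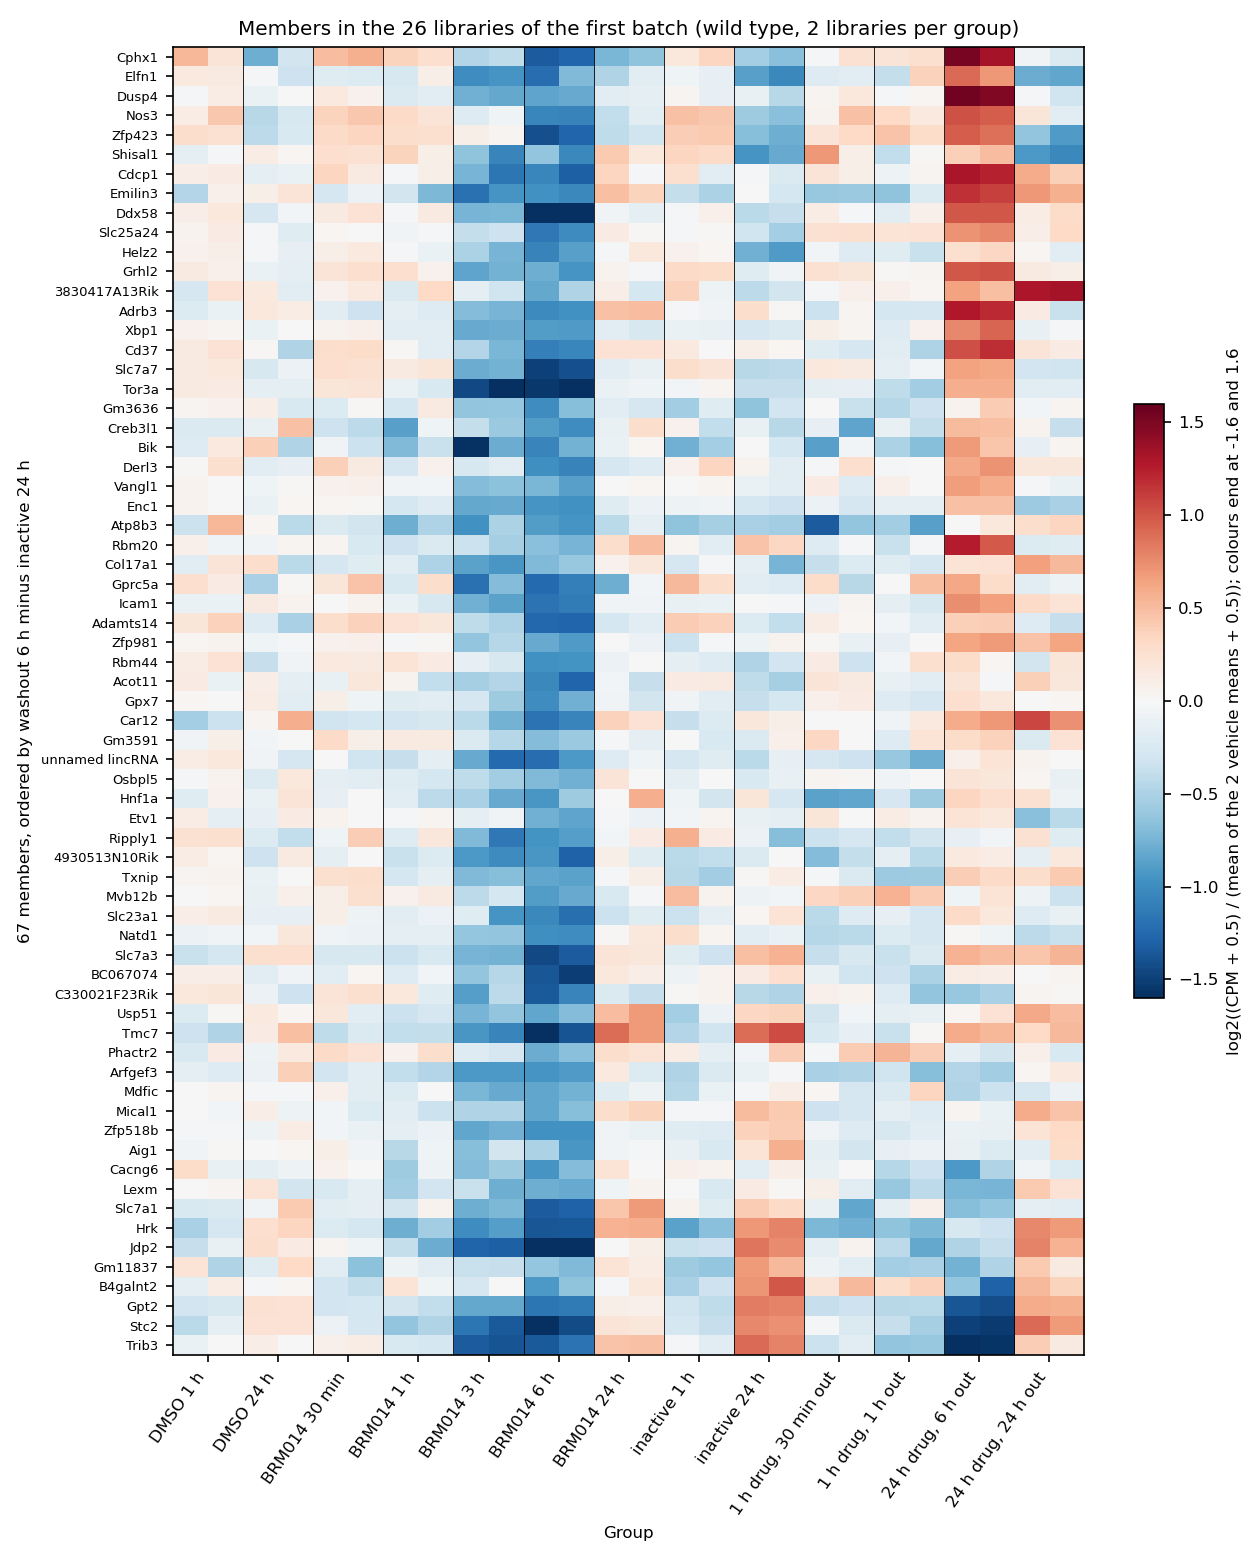
Heat map of the 67 members (rows, ordered by the washout 6 h minus inactive 24 h difference) in the 26 libraries of the first batch (columns, 2 a group), as log2 of CPM + 0.5 over the mean of both vehicle means + 0.5, with colours ending at -1.6 and 1.6. The BRM014 3 h and 6 h columns are blue in nearly all rows and the BRM014 24 h columns near white; the washout 6 h columns (24 h drug, 6 h out) are red in the upper rows and deep blue in Trib3, Stc2 and Gpt2 at the bottom.

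The onset could be tested between groups that the choice did not use. Between 1 h and 3 h of BRM014, 36 of the 67 members fell and 0 rose (edgeR quasi-likelihood test, adjusted p under 0.05), where 7.45% of the 12517 genes tested fell and 5.83% rose. The median change was -0.52 on the log2 scale over the members and -0.0025 over all genes tested. Tor3a fell to 22.8 and 19.8 CPM at 3 h, against 58.8 and 53.2 CPM at 1 h (log2 change -1.35 ± 0.08 SE, edgeR adjusted p = 8.6e-12). Trib3 fell to 25.7 and 24.7 CPM at 3 h, against 54.96 and 53.4 CPM at 1 h (-1.06 ± 0.08, edgeR adjusted p = 5.9e-10). Grhl2, a transcription factor of epithelial genes, fell to 31.3 and 33.4 CPM at 3 h, against 68.3 and 59.3 CPM at 1 h (-0.93 ± 0.08), and Slc7a7 fell to 155 and 160.1 CPM at 3 h, against 300.1 and 309 CPM at 1 h (-0.90 ± 0.06). Ddx58 fell to 27.8 and 28.3 CPM at 3 h, against 46.3 and 51.9 CPM at 1 h (-0.76 ± 0.10). At 6 h the levels of Tor3a and Grhl2 (32.8 and 29.0 CPM) were close to those at 3 h, while those of Ddx58 and Slc7a7 were lower.

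Other members were not called at 3 h. Etv1, an ETS transcription factor, had 20.1 and 21.5 CPM at 3 h and 21.96 and 23.0 CPM at 1 h (-0.07 ± 0.11, edgeR adjusted p = 0.74). Zfp423, a zinc finger factor of several developmental pathways, had 147 and 141 CPM at 3 h and 168 and 164 CPM at 1 h (-0.16, not called), and 51.6 and 56.7 CPM at 6 h. Of the members 53.7% fell between 1 h and 3 h, beside 255 of 462 (55.2%) of the genes still low at 24 h and 77 of 132 (58.3%) of those partly recovered; these shares were not tested against each other. Without replicate 2 of BRM014 3 h the count of members that fell was 23.

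The inactive analog gave a second control for 3 h, at other times. Against the mean of the analog's 1 h and 24 h libraries, 45 members were lower and 1, Zfp423, was higher at 3 h of BRM014, where 12.8% and 14.2% of all genes tested were. Trib3 (-1.71 ± 0.07), Gpt2, the mitochondrial alanine transaminase (-1.01 ± 0.05), Tor3a (-1.34 ± 0.07), Slc7a3 (-0.84 ± 0.06) and Zfp518b, a zinc finger protein (-0.86 ± 0.06), had the smallest adjusted p. At 1 h, where dose and time match, 0 of 67 members were called between BRM014 and the analog by edgeR, where 0.0719% of all genes tested were higher and 0.0879% lower. At an unadjusted p under 0.05 there were 9 members (13.4%), against 1215 of the 12517 genes tested (9.71%), and DESeq2 called 1. The median difference over the members was -0.05 log2, and the 95% interval was -0.14 to 0.24 log2 for Ddx58 and -0.31 to 0.01 log2 for Trib3. At 30 min of BRM014 the ratio to DMSO 1 h had a median of 1.03 over the members, and at 1 h of 0.88. After 1 h of drug and 30 min or 1 h of washout it had a median of 0.93 and 0.89.

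**Figure D2:**
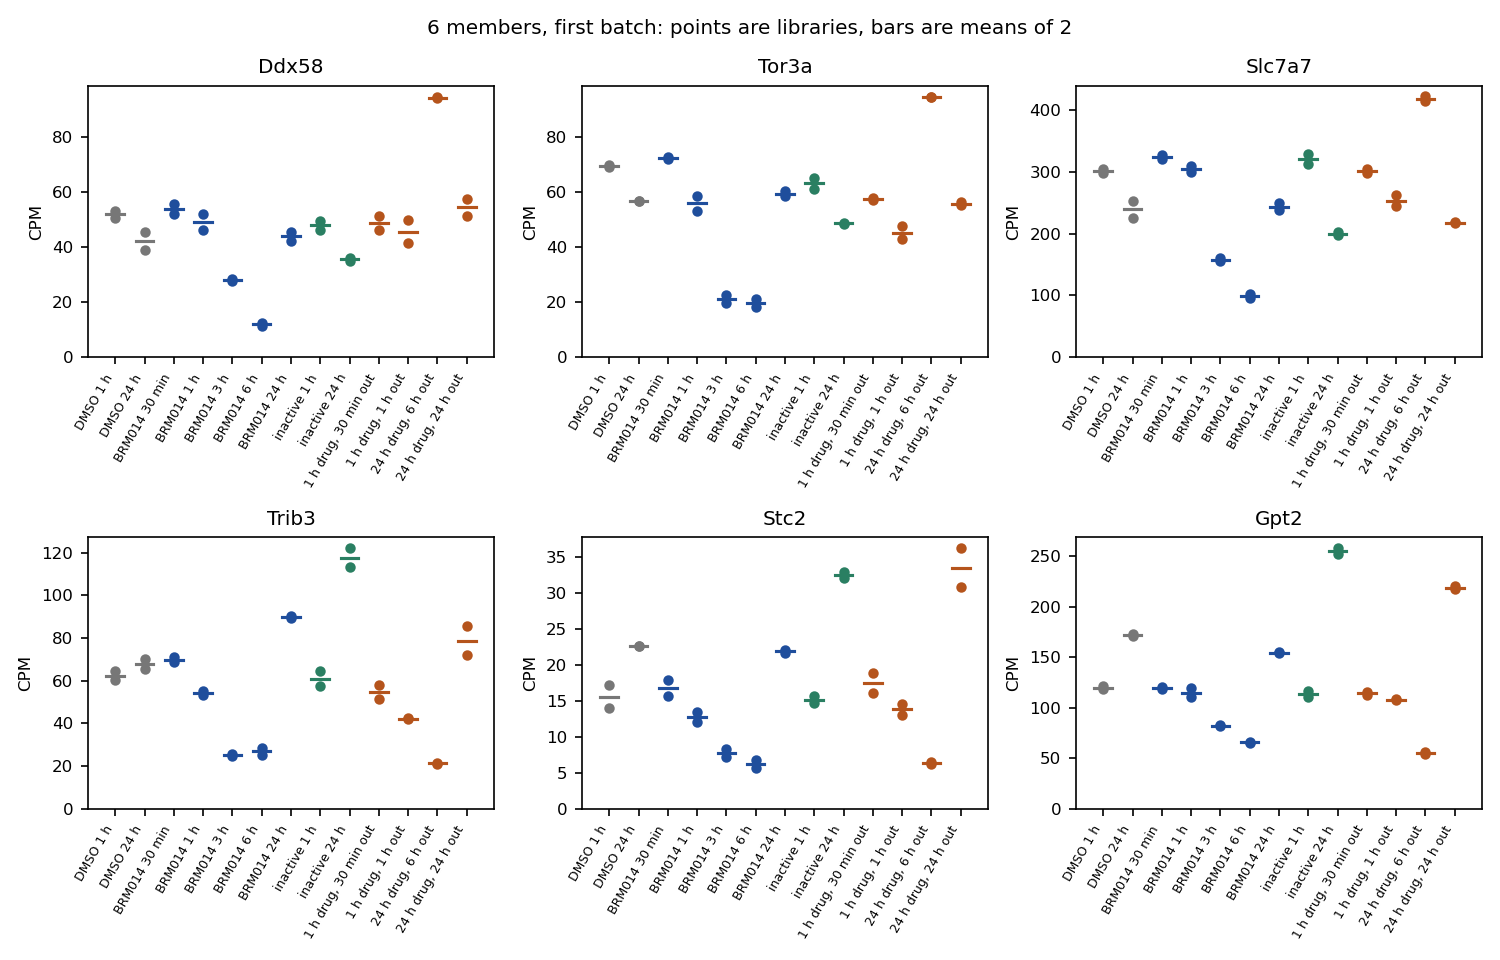
CPM of Ddx58, Tor3a, Slc7a7, Trib3, Stc2 and Gpt2 in the 13 groups of the first batch; points are libraries and bars the mean of 2. In the BRM014 course all 6 genes are low at 3 h and 6 h and higher at 24 h; at washout 6 h (24 h drug, 6 h out) Ddx58, Tor3a and Slc7a7 reach their highest level while Trib3, Stc2 and Gpt2 are at 21.1 and 21.6, 6.45 and 6.25, and 55.9 and 54.0 CPM.

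The second batch repeated 24 h of BRM014 in wild type with libraries that played no part in the choice. Of the 67 members 13 were higher and 8 lower than with DMSO, where 20.6% and 21.7% of the 13130 genes tested were, and the median difference was 0.07 log2. Of the 462 genes still low at 24 h in the first batch, 422 were lower and 0 higher here, with a median of -1.32 log2. Of the 132 partly recovered genes, 71 were lower and 1 higher, with a median of -0.42 log2. The ratio of BRM014 to DMSO means was between 0.85 and 1.5 for 47 of 67 members, at most 0.6 for 3 and above 1.5 for 8; among the 9305 genes with the vehicle level 62.6% were in that range. The 95% interval of the ratio lay above 0.6 for 61 members, with a median half-width of 0.31 log2.

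Ddx58 had 40.1 and 45.2 CPM with BRM014 and 36.0 and 39.5 CPM with DMSO in these wild-type cells, a difference of 0.19 log2 (95% interval 0.03 to 0.36, edgeR adjusted p = 0.060). Trib3 had 61.9 and 58.2 CPM with BRM014 and 60.0 and 59.1 CPM with DMSO (0.04, interval -0.12 to 0.20). Slc7a3 had 269 and 284 CPM with BRM014 and 286 and 296 CPM with DMSO (-0.05, interval -0.18 to 0.08). None of the 3 was called; the libraries of both groups overlap for Trib3, and do not for Ddx58 and Slc7a3.

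Other members passed the vehicle level. Rbm20, a splicing factor, had 10.5 CPM in both BRM014 libraries and 4.07 and 4.70 CPM with DMSO (1.28 ± 0.14, edgeR adjusted p = 3.1e-07). Hrk, a promoter of cell death of the BCL2 family, had 12.9 and 12.8 CPM with BRM014 and 6.997 and 6.37 CPM with DMSO (0.97 ± 0.11). Tmc7, a transmembrane channel-like protein, had 10.2 and 11.6 CPM with BRM014 and 6.95 and 5.33 CPM with DMSO (0.84 ± 0.16), and Cd37, a tetraspanin, 11.6 and 13.1 CPM with BRM014 and 7.28 and 7.32 CPM with DMSO (0.77 ± 0.11). Osbpl5, Icam1, Cdcp1 and Phactr2 also rose, by 0.72, 0.32, 0.66 and 0.73 log2.

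A smaller set was lower than vehicle. Etv1 had 15.6 and 16.0 CPM with BRM014 and 23.2 and 22.3 CPM with DMSO (-0.51 ± 0.09, edgeR adjusted p = 2.2e-04). Slc7a7 had 232 and 240 CPM with BRM014 and 296 and 277 CPM with DMSO (-0.26 ± 0.06). Stc2, Zfp518b and Enc1, an actin-binding protein, fell by 0.28, 0.22 and 0.21 log2. The 3 members at a ratio of 0.6 or lower were Cphx1, C330021F23Rik and Atp8b3, at 0.450, 0.549 and 0.580, named after their values were seen. Cphx1 has near-identical copies, so its reads may be shared with them, and the same holds for Zfp981, Gm3636 and Gm3591.

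In the Snf2hko line most members were low after 24 h of BRM014. Compared with DMSO in the same line 44 of 67 were lower and 8 higher, where 28.2% and 28.7% of all genes tested were. The median was -0.74 log2 against 0.01 over all genes. The other genes that dipped at 6 h were lower more often. Of the 462 still low, 428 (92.6%) were lower here, with a median of -1.76 log2. Of the 132 partly recovered genes 96 (72.7%) were, with a median of -0.94 log2. The ratio of means was at most 0.6 for 34 members and between 0.85 and 1.5 for 18. The effect of the drug was called lower in Snf2hko than in wild type for 40 of 67 members and higher for 2, in a test of the interaction that called 16.8% and 15.8% of all genes. The median of that difference was -0.72 log2 over the members, -0.45 over the 462 genes still low, of which 182 were called lower, and -0.54 over the 132 partly recovered genes, of which 65 were. The shares were not tested against each other. The choice kept members near vehicle after 24 h of BRM014 in wild type and set no limit in the knockout lines. A lower effect in a knockout line can therefore follow from that choice.

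Ddx58 stood lowest. It had 7.74 and 8.03 CPM with BRM014 and 39.1 and 37.8 CPM with DMSO in Snf2hko (-2.24 ± 0.09, edgeR adjusted p = 2.1e-13). The interaction was -2.43 ± 0.12 (edgeR adjusted p = 3.0e-10). Slc7a3 had 59.2 and 66.0 CPM with BRM014 and 163 and 165 CPM with DMSO (-1.34 ± 0.06, interaction -1.29 ± 0.09). Nos3, the endothelial nitric oxide synthase, had 2.25 and 2.172 CPM with BRM014 and 9.47 and 11.2 CPM with DMSO (-2.18 ± 0.14, interaction -2.16 ± 0.19).

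Gpx7, a peroxidase of the endoplasmic reticulum, had 3.35 and 3.93 CPM with BRM014 and 13.3 and 13.6 CPM with DMSO in Snf2hko (-1.83 ± 0.15, interaction -2.04 ± 0.20). Zfp981, a KRAB-type zinc finger gene, had 35.7 and 41.3 CPM with BRM014 and 102 CPM in both DMSO libraries (-1.36 ± 0.09, interaction -1.38 ± 0.13). Stc2 had 13.8 and 12.9 CPM with BRM014 and 36.4 and 38.9 CPM with DMSO (-1.45 ± 0.09, interaction -1.17 ± 0.13). The BRM014 and DMSO libraries of this line do not overlap for any of the 6 genes described, and over all members they were fully separated with BRM014 lower for 49 and higher for 10 of 67, where 41.5% and 36.9% of all genes were. In Ino80ko they were separated with BRM014 lower for 35 and higher for 18 members, where 43.1% and 29.7% of all genes were, and in wild type of this batch for 18 and 23, where 37.4% and 31.2% were.

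Not every member followed. Trib3 had 49.3 and 50.6 CPM with BRM014 and 43.2 and 46.4 CPM with DMSO in Snf2hko (0.20, called higher, interaction 0.16 with edgeR adjusted p = 0.26). Gpt2 had 95.7 and 99.7 CPM with BRM014 and 102 and 106 CPM with DMSO (-0.04 ± 0.06, not called). Slc7a1, with 478 and 331 CPM with BRM014 and 263 and 226 CPM with DMSO, and Aig1, a hydrolase of fatty acid esters, were the 2 members with a higher effect than in wild type (interactions 0.71 ± 0.23 and 1.01 ± 0.29, edgeR adjusted p = 0.045 and 0.012). The BRM014 libraries of Slc7a1 lie far apart.

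**Figure D3:**
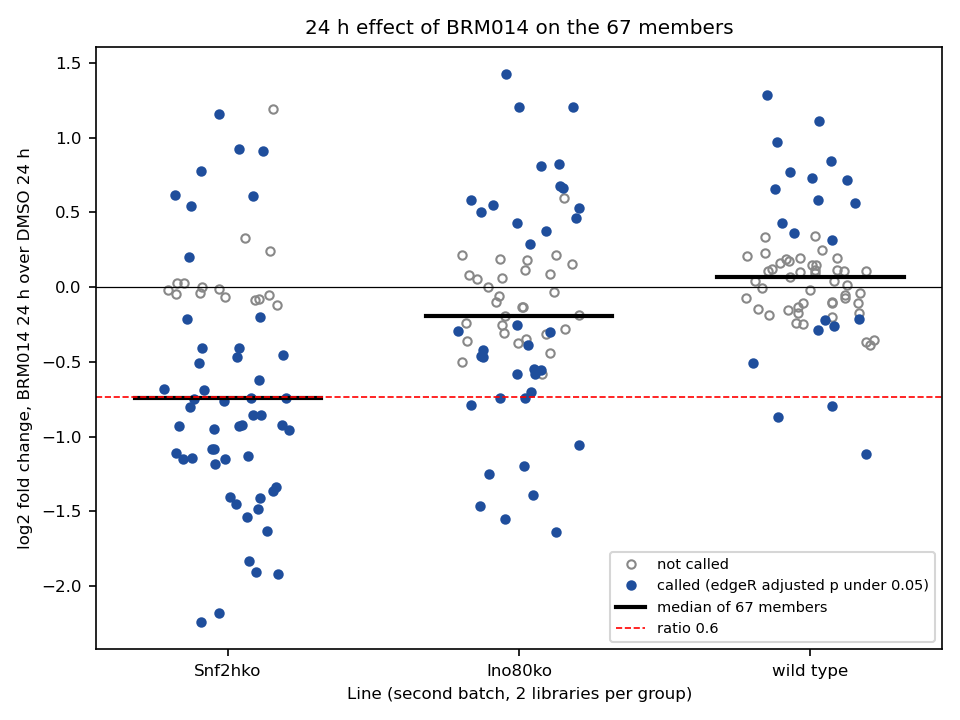
Difference between BRM014 and DMSO at 24 h (log2 fold change) for each of the 67 members in Snf2hko, Ino80ko and wild type of the second batch; filled points were called by edgeR at an adjusted p under 0.05, black bars are medians and the dashed line is the ratio 0.6. The medians are -0.74, -0.19 and 0.07, and in Snf2hko the median lies at the dashed line.

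In Ino80ko the members went both ways. Of the 67, 22 were lower and 15 higher with BRM014 than with DMSO, where 22.6% and 22% of all genes tested were, and the median was -0.19 log2. The interaction with wild type was called lower for 16 members and higher for 6, where 4.87% and 4.16% of all genes were. Other genes that dipped at 6 h were also called more often than all genes. Of the 462 still low, 84 were called lower and 48 higher. Of the 132 partly recovered genes 23 were called lower and 6 higher. These counts were not tested against each other. Gpt2 had 190 and 187 CPM with BRM014 and 84.96 and 87.3 CPM with DMSO (1.203 ± 0.06, edgeR adjusted p = 7.8e-12), and its interaction was 1.11 ± 0.09. Hrk had 28.9 and 28.1 CPM with BRM014 and 11.2 CPM in both DMSO libraries (1.42 ± 0.09), Slc7a3 378 and 382 CPM with BRM014 and 254 and 251 CPM with DMSO (0.66 ± 0.06), and Stc2 19.9 and 18.6 CPM with BRM014 and 11.1 and 11.8 CPM with DMSO (0.83 ± 0.10). Slc7a3 and Stc2 thus rose in Ino80ko and fell in Snf2hko. Both interactions with wild type were called, in opposite directions (0.72 ± 0.09 and 1.11 ± 0.14 in Ino80ko). These tests share the wild-type libraries. For Stc2 the lines differed most with DMSO, with means of 11.45 CPM in Ino80ko, 22.86 in wild type and 37.66 in Snf2hko. With BRM014 its means were 19.26, 18.54 and 13.34 CPM.

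Among the members that fell in Ino80ko, Nos3 had 6.44 and 6.46 CPM with BRM014 and 20.6 and 19.2 CPM with DMSO (-1.55 ± 0.12, interaction -1.53 ± 0.17). Arfgef3, of the family that activates ARF GTPases, had 3.01 and 2.87 CPM with BRM014 and 9.21 and 10.1 CPM with DMSO (-1.64 ± 0.13, interaction -1.51 ± 0.17). Adamts14, a protease that trims procollagen, had 10.2 and 11.3 CPM with BRM014 and 29.7 CPM in both DMSO libraries (-1.39 ± 0.09, interaction -1.24 ± 0.13). Rbm20, which rose in wild type, had 3.62 and 4.38 CPM with BRM014 and 6.04 and 6.55 CPM with DMSO (-0.58, interaction -1.86 ± 0.19). Of the 22 members lower in Ino80ko 17 (77.3%) were also lower in Snf2hko, which are 38.6% of the 44 lower there. Of the 15 higher in Ino80ko 9 (60.0%) were lower in Snf2hko. Both shares stand beside 65.7% of all 67 members that were lower in Snf2hko. Across the 67 members the drug effects in the 2 lines had Pearson r = 0.17, against 0.57 across the 13130 genes tested. The lines share no library, and genes are not independent replicates. The choice kept only genes near vehicle after 24 h of BRM014 in wild type, which leaves out genes with a strong effect there. A lower r can follow from that choice alone, so it does not show a response particular to a line. Wild type of the second batch against Snf2hko gave 0.11 over the members and 0.56 over all genes tested.

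**Figure D4:**
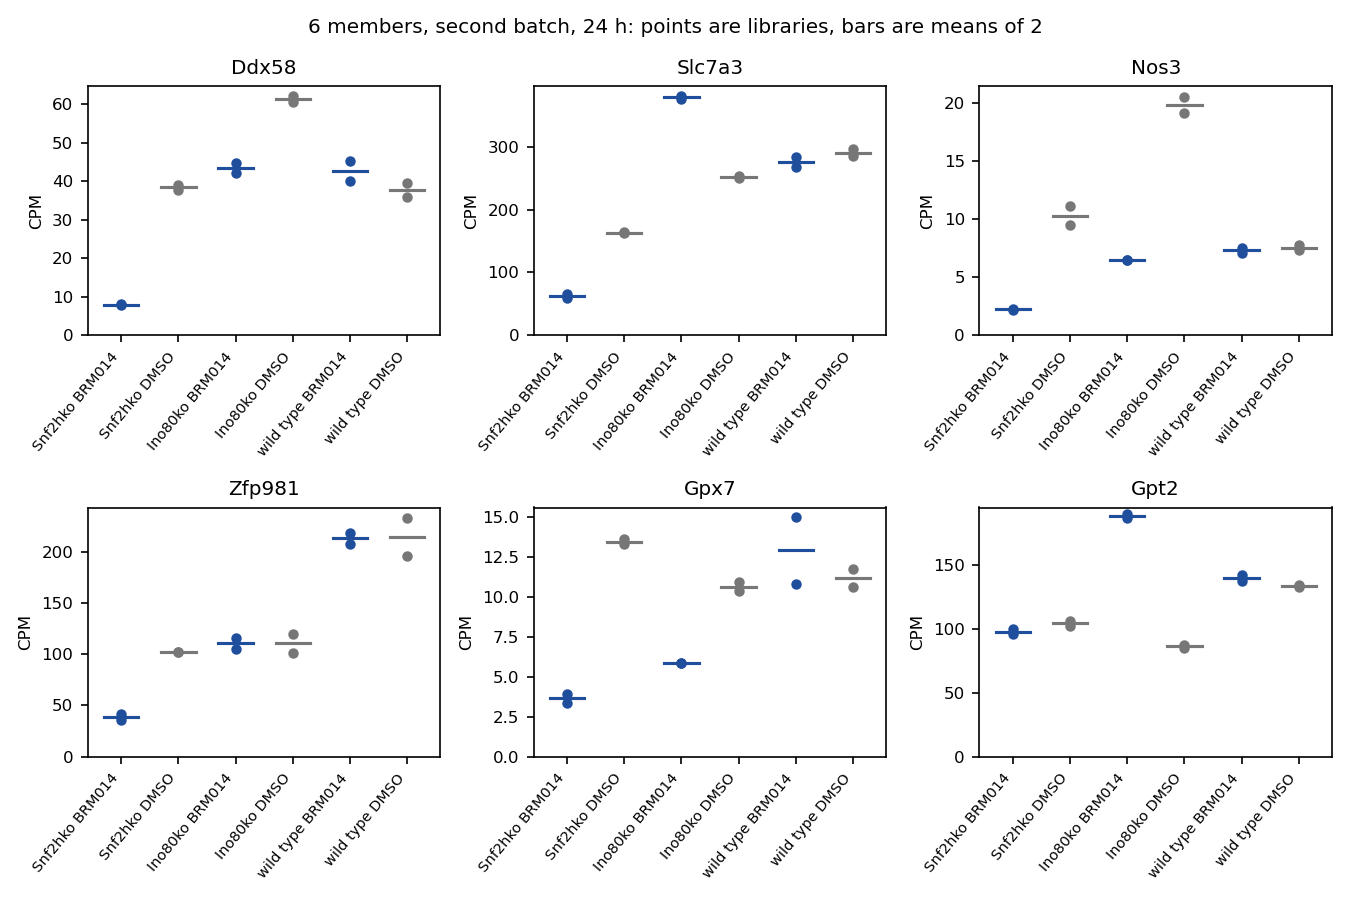
CPM of Ddx58, Slc7a3, Nos3, Zfp981, Gpx7 and Gpt2 in the second batch, BRM014 24 h left of DMSO 24 h in Snf2hko, Ino80ko and wild type; points are libraries and bars the mean of 2. In Snf2hko the BRM014 libraries of the first 5 genes lie far under their DMSO libraries, while none of the 5 was called in wild type; Gpt2 was called higher in Ino80ko, with 190 and 187 CPM, and was not called in the other lines.

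The lines already differed without drug. With DMSO, 25 members were higher and 24 lower in Snf2hko than in wild type, where 28.9% and 27.7% of all genes tested were, and 21 were higher and 18 lower in Ino80ko, where 22.1% and 22.9% were. These comparisons share their DMSO libraries with the drug effects above. Rbm44, an RNA-binding protein of germ cells, was nearly silent in Snf2hko, with 0.167 and 0.090 CPM against 5.90 and 6.51 CPM in wild type (-5.61 ± 0.32, edgeR adjusted p = 2.5e-11). Helz2, an interferon-induced helicase, had 2.33 and 1.98 CPM in Snf2hko and 11.9 and 13.1 CPM in wild type (-2.58 ± 0.15), and Grhl2 23.1 and 23.8 CPM in Snf2hko and 58.4 and 61.2 CPM in wild type (-1.39 ± 0.08). Xbp1, a transcription factor of the unfolded protein response, had 187 and 185 CPM in Snf2hko and 79.6 and 90.2 CPM in wild type (1.09 ± 0.07), and Mvb12b, a subunit of a sorting complex of endosomes, 33.5 and 35.1 CPM in Snf2hko and 9.47 and 8.14 CPM in wild type (1.93 ± 0.12).

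Ddx58 did not differ beyond its error between Snf2hko and wild type with DMSO (-0.01 ± 0.08). In Ino80ko, Txnip, a regulator of glucose uptake, had 497 and 484 CPM with DMSO, against 265 and 261 CPM in wild type (0.91 ± 0.06), and Zfp423 had 227 and 212 CPM against 116 and 112 CPM in wild type (0.96 ± 0.07). Nos3 had 20.6 and 19.2 CPM in Ino80ko and 7.33 and 7.77 CPM in wild type (1.41 ± 0.12). Dusp4, a phosphatase that switches off ERK, had 10.35 and 10.3 CPM in Ino80ko and 24.7 and 23.9 CPM in wild type (-1.23 ± 0.10), and Zfp981 was lower too (-0.95 ± 0.09).

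Levels also moved over a day with the inactive analog. Between 1 h and 24 h of the inactive analog 16 members rose and 17 fell, where 16.6% and 17.3% of all genes tested did, with a median of 0.00 log2. Gpt2 rose to 258 and 252 CPM at 24 h, against 116 and 110.3 CPM at 1 h (1.22 ± 0.05, edgeR adjusted p = 1.9e-15). Trib3 rose to 122 and 113 CPM at 24 h, against 64.5 and 57.4 CPM at 1 h (0.996 ± 0.08), Slc7a3 to 297 and 313 CPM at 24 h, against 185 and 169 CPM at 1 h (0.83 ± 0.06), and Hrk to 15.3 and 16.5 CPM at 24 h, against 4.90 and 5.63 CPM at 1 h (1.64 ± 0.13). Zfp423 fell to 85.3 and 79.6 CPM at 24 h, against 181 and 185 CPM at 1 h (-1.10 ± 0.08). The analog and the vehicle stood apart at 24 h for some of these members, a comparison given without a test because the choice used DMSO 24 h. Trib3 averaged 117.5 CPM with the analog and 67.8 CPM with DMSO at 24 h, a ratio of 1.73, and with DMSO its 24 h level was 1.09 of that at 1 h, against 1.93 with the analog. The ratio of analog to DMSO at 24 h was 1.48 for Gpt2, 1.44 for Stc2, 1.55 for Jdp2 and 1.37 for Hrk, and 0.751 for Zfp423 and 0.583 for Helz2. With DMSO the ratio of 24 h to 1 h was 1.43 for Gpt2, 1.496 for Slc7a3 and 1.66 for Hrk, and 0.663 for Zfp423. Of the 16 members that rose with the analog 14 had a ratio above 1 with DMSO, with a median of 1.16 against 1.82 with the analog, and of the 17 that fell 15 were below 1.

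After removal of the drug the members went different ways. At 6 h after washing out 24 h of BRM014, 38 members (56.7%) were higher and 17 (25.4%) lower than with the analog at 24 h. Of all genes tested 24.6% were higher and 21.4% lower. The other genes that dipped at 6 h had similar shares higher. Of the 462 still low, 230 (49.8%) were higher and 75 (16.2%) lower. Of the 132 partly recovered genes 68 (51.5%) were higher and 12 (9.09%) lower. These shares were not tested against each other, and the total times in culture differ. Dusp4 had 105 and 101 CPM at washout 6 h and 32.9 and 26.2 CPM with the analog (1.77 ± 0.09, edgeR adjusted p = 1.0e-14). Zfp423 had 271 and 253 CPM at washout 6 h and 85.3 and 79.6 CPM with the analog (1.63 ± 0.08), and Ddx58 94.2 and 94.4 CPM at washout 6 h and 34.8 and 36.2 CPM with the analog (1.37 ± 0.09). Slc7a7 had 423 and 415 CPM at washout 6 h and 198 and 203 CPM with the analog (1.03 ± 0.06). A smaller number was below the analog. Gpt2 had 55.9 and 54.0 CPM at washout 6 h and 258 and 252 CPM with the analog (-2.25 ± 0.06, edgeR adjusted p = 4.7e-22), Trib3 21.1 and 21.6 CPM at washout 6 h and 122 and 113 CPM with the analog (-2.50 ± 0.08), and Stc2 6.45 and 6.25 CPM at washout 6 h and 32.9 and 32.04 CPM with the analog (-2.39 ± 0.13). Against DMSO 24 h the ratio of washout 6 h was 0.315 for Trib3, 0.320 for Gpt2 and 0.281 for Stc2, which are -1.67, -1.64 and -1.83 on the log2 scale and closer to 0 than against the analog. It was above 1 for all 38 members called higher and below 1 for 16 of the 17 called lower.

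Between 6 h and 24 h of washout 14 members (20.9%) rose and 26 (38.8%) fell, where 19% and 21.3% of all genes tested did. Of the 132 partly recovered genes 20 (15.2%) rose and 47 (35.6%) fell. Of the 462 still low, 123 (26.6%) rose and 134 (29.0%) fell. Gpt2 rose to 220.2 and 217 CPM at washout 24 h, against 55.9 and 54.0 CPM at washout 6 h (2.00 ± 0.06), Stc2 to 36.2 and 30.8 CPM at washout 24 h, against 6.45 and 6.25 CPM at washout 6 h (2.40 ± 0.13), and Trib3 to 85.4 and 72.1 CPM at washout 24 h, against 21.1 and 21.6 CPM at washout 6 h (1.89 ± 0.08). Dusp4 fell to 35.1 and 28.5 CPM at washout 24 h, against 105 and 101 CPM at washout 6 h (-1.69 ± 0.09), and Zfp423 to 88.5 and 73.2 CPM at washout 24 h, against 271 and 253 CPM at washout 6 h (-1.69 ± 0.08). Against the analog at 24 h, washout 24 h was higher for 17 members and lower for 7, where 12.5% and 11.1% of all genes were, with a median of 0.09 log2; Ddx58, Helz2, Zfp981 and Slc25a24, a mitochondrial carrier, were higher by 0.59, 0.76, 0.53 and 0.65 log2, and Trib3 was lower (-0.61). The control matters here: against DMSO 24 h the ratio of washout 24 h was 1.16 for Trib3, which turns its direction, 1.01 for Helz2 and 1.29 for Ddx58. Of the 7 members called lower than the analog 3 were above DMSO 24 h, and the 17 called higher were all above it.

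The members that rose or fell over a day with the analog tended to do so after washout. Of the 16 that rose with the analog 9 (56.2%) also rose between washout 6 h and 24 h. They are 64.3% of the 14 that rose there. Of the 17 that fell 14 (82.4%) also fell, which are 53.8% of the 26. Over all 67 members 20.9% rose and 38.8% fell between the washouts. Such an overlap was not counted over all genes or over the other genes that dipped at 6 h. Rbm20 and C330021F23Rik were called in opposite directions. Across the 67 members the 2 changes had Pearson r = 0.67 and Spearman rho = 0.60, against 0.19 and 0.22 across the 12517 genes tested. The comparisons share no library, and the points are genes of the same libraries. Neither value was computed over the other genes that dipped at 6 h, so they do not show a trait of the members alone. Of the 38 members higher at washout 6 h, 28 (73.7%) were lower with BRM014 in Snf2hko, which are 63.6% of the 44 there. Of the 17 lower at washout 6 h 7 (41.2%) were lower in Snf2hko, beside 65.7% of all 67 members.

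**Figure D5:**
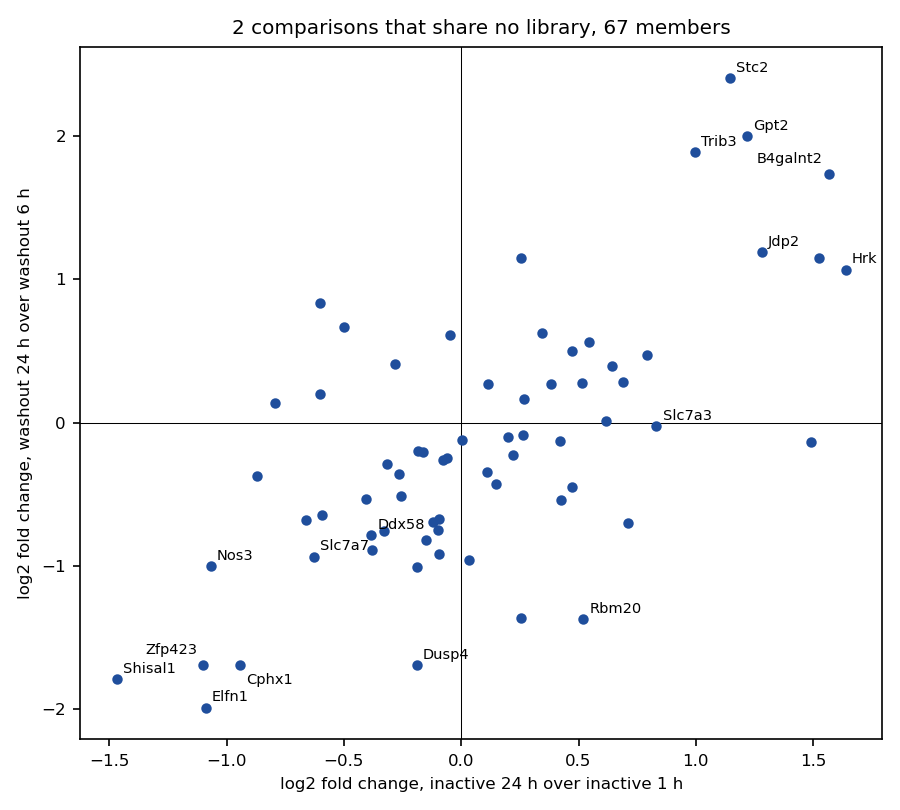
Change between the analog's 1 h and 24 h libraries (x axis, log2) against the change between washout 6 h and 24 h (y axis, log2) for the 67 members, which share no library. Stc2, Gpt2, Trib3, B4galnt2, Jdp2 and Hrk lie at the upper right and Shisal1, Zfp423, Elfn1, Cphx1 and Nos3 at the lower left; Pearson r is 0.67.

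In all, 5 members belong to the gene lists used for the series. Trib3 stands in a list of 18 targets and regulators of ATF4 and cellular stress, 12 of which could be tested. All 12 rose between 1 h and 24 h of the analog (median 0.92 log2), among them Chac1, a glutathione-degrading enzyme (2.26 ± 0.13), and Psat1 and Asns, enzymes that make serine and asparagine (1.11 ± 0.05 and 0.85 ± 0.05). At washout 6 h 11 were lower and 0 higher than with the analog at 24 h (median -1.01 log2), with Chac1 at -3.93 ± 0.16 and Asns at -0.94 ± 0.05, and 11 rose and 0 fell by washout 24 h. With DMSO all 12 were above their 1 h level at 24 h, with a median ratio of 1.48 against 1.83 with the analog, and all 12 were below DMSO 24 h at washout 6 h, with a median ratio of 0.567. Between 1 h and 3 h of BRM014, 5 of the 12 fell and 0 rose, Chac1 (-2.23 ± 0.18) and Trib3 most. With BRM014 at 24 h, 4 were higher and 4 lower in Snf2hko, 9 higher and 0 lower in Ino80ko, and 5 higher and 2 lower in wild type of the second batch. The median change over all genes tested in these comparisons ran from -0.02 to 0.03 log2.

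Dusp4 and Etv1 stand in a list of 13 genes of ERK feedback, 12 of which could be tested. All 12 were higher at washout 6 h than with the analog at 24 h (median 0.70 log2), among them Dusp6, a phosphatase of ERK (1.34 ± 0.06), and all 12 fell by washout 24 h. All 12 were above DMSO 24 h at washout 6 h as well, with a median ratio of 1.56. Between 1 h and 3 h of BRM014, 4 of the 12 fell and 0 rose, and Dusp4 (-0.56 ± 0.10) was among them. Icam1 stands in a list of 16 NF-kB and inflammation genes, 12 of them tested, of which 9 were higher and 0 lower at washout 6 h and 1 fell and 1 rose between 1 h and 3 h of BRM014. Txnip stands in a list of 14 targets of glucocorticoids and of insulin and FOXO factors, 12 of them tested, of which 3 fell and 0 rose between 1 h and 3 h and 3 were higher and 4 lower at washout 6 h.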

How the data were processed

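RNA-seq of 38 libraries was analysed from the deposited counts, which are raw whole-number counts per gene as the authors deposited them, one column a library; all 38 columns were matched to a sample and 0 were left over. Reads were demultiplexed with bcl2fastq 2.17 and mapped with STAR to GRCm38, per the submitters' processing notes; the counting program is not given in the sources used here. Libraries were stranded, per the labels' protocols, but the counting setting is not given, so antisense members (Gm11837, 4930513N10Rik) are uncertain.

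Each batch was fitted alone in edgeR 4.0.16 (R 4.3.3) with TMM scaling, a filter by group (minimum count 10, total 15) and the robust quasi-likelihood F-test: 12517 genes in 26 libraries, and 13130 genes in 12 libraries. P-values were adjusted by Benjamini-Hochberg over all genes of a fit, and calls are at an adjusted p of 0.05. Values after ± are standard errors. Fits were tested on simulated data. CPM used the whole column total. Alternatives were DESeq2 1.42.0, DESeq2's size factors, no filter, a replicate term, the compared libraries alone, and each library left out.

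The members and gene lists were chosen with earlier results of these data known, and no p over a list is given. Named genes are members that are no predicted model and have a mean vehicle level of at least 5 CPM: the 20 lowest by 6 h ratio, the 10 with the smallest adjusted p between 3 h and 1 h of BRM014, up to 8 each way in wild type of the second batch, up to 5 called in each other comparison, and every member of a list; the 3 genes either side of the 6 h limit are given too. Aig1, Cphx1, C330021F23Rik, Atp8b3, B4galnt2, Shisal1, Elfn1 and genes of the lists that are no members were named after their values were seen. Positions are on GRCm38.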

Additional observations from a re-analysis of the deposited data

Results flagged for a closer look

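The effect of BRM014 at 24 h differed between the lines in a test of the interaction. In Ino80ko it differed from wild type for 22 of the 67 members, where 4.16% of all genes tested were called higher and 4.87% lower. In Snf2hko it differed for 42 members, where 15.8% of all genes tested were called higher and 16.8% lower. Of the 462 genes still low, 182 were called lower and 65 higher in Snf2hko, and 84 and 48 in Ino80ko. Among the 132 partly recovered genes these counts were 65 and 10 in Snf2hko, and 23 and 6 in Ino80ko. The choice kept members near vehicle after 24 h of BRM014 in wild type and set no limit in the knockout lines. A lower effect there can follow from that choice. In Ino80ko against wild type the difference between effects was 1.11 log2 for Gpt2, -1.861 for Rbm20, -1.243 for Adamts14, -1.531 for Nos3 and -1.507 for Arfgef3. In Snf2hko against wild type it was -2.433 log2 for Ddx58, -1.288 for Slc7a3, -2.161 for Nos3, -1.379 for Zfp981 and -2.037 for Gpx7. Both tests use the same wild-type libraries, so they are not independent of each other, and Zfp981 has near-identical copies with which it may share reads. Within a batch, no group had the 4 samples that a check for a sample apart from its group needs.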

How the results depend on the processing

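The number of members depended on the limits of the rule: 25 genes met it at a 6 h ratio of at most 0.5 and 146 at 0.7, against 67 at 0.6, while a 24 h range of 0.85 to 1.2 gave 53, vehicle means of at least 5 CPM gave 46, and TMM library sizes gave 73, of which 66 were shared. Leaving out replicate 1 or replicate 2 gave 70 each. Between BRM014 and the inactive analog at 1 h, where edgeR called 0 members, no filter gave 1 and DESeq2 gave 1. Between 3 h and 1 h of BRM014 the count of members called was 23 to 28 with 1 library left out, and 23 without replicate 2 of BRM014 3 h, against 36; the fit then had fewer samples. With 1 library left out, the other counts were 16 to 18 in wild type of the second batch, 31 to 35 in Ino80ko, 46 to 48 in Snf2hko, 18 to 21 and 33 to 38 for the interactions of Ino80ko and Snf2hko, 34 to 38 and 42 to 47 for those lines against wild type with DMSO, 37 to 45 for 3 h against the analog, 0 at 1 h, 25 to 33 for the analog over time, 36 to 37 between washouts, and 42 to 46 and 17 to 20 for washout 6 h and 24 h against the analog; a lone sample was assumed to vary like the other groups. Of 496 called values of named genes, 0 changed sign under any alternative run, and 3 to 32 were no longer called under the other fits, most by DESeq2 (6.45%). With 1 library left out, 344 of 2332 such values (14.8%) were no longer called.

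Samples with the same replicate number deviated together only weakly. Correlations ran from -0.212 to 0.258 over 78 pairs of groups in the first batch, with 10 above 0.1. They ran from 0.0276 to 0.106 over 3 pairs in the second batch. So few samples cannot show whether the numbers mark shared cultures, and the main fits used no pairing. With a replicate block the second batch's wild type had 22 members called, with 39 in Ino80ko, 52 in Snf2hko, 42 for the Snf2hko interaction and 35 between 3 h and 1 h. Members are lowly expressed (median vehicle level 9.26 CPM), and the median half-width of the 95% interval was 0.31 log2 in wild type of the second batch.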
